A study of Mus musculus with 24 samples.

Results

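The 5 genes described here encode the chains of the neuronal intermediate filament: Nefh, Nefm and Nefl, the heavy, medium and light neurofilament chains, Ina, which encodes alpha-internexin, and Prph, which encodes peripherin (not the photoreceptor gene Prph2). They were found by gene symbol from the Ensembl identifiers of the deposited tables, and all 5 were present in both tables, among 14922 genes at 1 week and 15920 at 5 weeks, or 16387 genes in either. The samples were whole retinas of adult male C57BL/6J mice, a widely used inbred strain, sequenced as polyA-selected RNA in 24 libraries. Anaesthetised mice received a pressure wave inside a closed blast chamber, with the retina taken from the eye that faced the wave (bTBI), or were handled alike without the blast (sham), with 6 retinas of each at 1 week (labelled 8 days) and 6 of each at 5 weeks. The labels name no engineered allele. RNA of the earlier timepoint was purified with the RNeasy Plus Mini kit and that of 5 weeks with the RNeasy Mini kit, and the 2 tables were normalized separately, so that timepoint, kit and table cannot be told apart.

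Neurofilaments are the main structural polymers of large axons. The light chain can form filaments, and the medium and heavy chains join it through their rod domains and project long phosphorylated tails that set the spacing between filaments and with it the calibre of the axon. Alpha-internexin is a further subunit of neurofilaments in central neurons, and peripherin is a related chain best known from neurons of the peripheral nervous system. In the retina the heavy, medium and light chains are known mainly from retinal ganglion cells (RGCs), whose axons form the optic nerve, and the heavy chain also from horizontal cells.

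The label names the cell type as retinal ganglion cell, but the libraries were of whole retina. Gnat1, the transducin gene of rods, was at 18888 to 25175 CPM in the 12 retinas of 1 week and at 15673 to 17217 CPM in the 12 of 5 weeks, where CPM is the usual scaling of a gene's reads to a common library size, as the submitters set it. Depth was 14301989 to 25158638 reads per library. Of the bTBI retinas at 1 week, 2 stood apart in markers of oligodendrocytes, the myelin-forming cells of the optic nerve. Mbp, for myelin basic protein, was at 2531 CPM in replicate 3 and 139 CPM in replicate 4, against 35.7 to 42.0 CPM in the other 10 retinas of that timepoint. Cryaa, for a lens crystallin, was at 2003 CPM in replicate 5 and 4541 CPM in replicate 6 of the same group, against 2.10 to 422 CPM in the other 10. The log2 fold changes and ratios of the chains at 1 week were also fitted without these retinas, a pair at a time. The other intermediate filaments and the correlations are not given without these pairs.

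Nefh lies on mouse chromosome 11 (chr11:4938754-4948064, minus strand), Ina on chromosome 19 (chr19:47014698-47025327, plus strand) and Prph on chromosome 15 (chr15:99055174-99058978, plus strand), in the GRCm38 build with GENCODE M21. Nefm (chr14:68082590-68124846, minus strand) and Nefl (chr14:68083863-68089095, plus strand) are neighbours on chromosome 14. One annotated Nefm transcript of 2 has an exon antisense to the first part of Nefl, with 1108 exonic bases in common, or 32.8% of the Nefl exons and 19.2% of the Nefm exons. The library kit marks strand, but whether the counting used it was not stated in the sources used here, and without strand the reads of these bases cannot be assigned to one of the pair.

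Of the 5 chains, 2 matched an entry in the RefSeq promoter table used here, Ina and Prph, and their promoters are shown for a chain that was abundant in these retinas and one that was scarce. Each is 300 bases of RefSeq sequence (GRCm38.p6), 250 before and 50 after the annotated start, read 5′ to 3′ on the plus strand, with Ina at chr19:47014431-47014730 and Prph at chr15:99054924-99055223. Capitals mark matches on either strand to the TATA box (letters TATAAA) and to the GC box (letters GGGCGG, printed as its reverse complement where it lies on the other strand).

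Ina: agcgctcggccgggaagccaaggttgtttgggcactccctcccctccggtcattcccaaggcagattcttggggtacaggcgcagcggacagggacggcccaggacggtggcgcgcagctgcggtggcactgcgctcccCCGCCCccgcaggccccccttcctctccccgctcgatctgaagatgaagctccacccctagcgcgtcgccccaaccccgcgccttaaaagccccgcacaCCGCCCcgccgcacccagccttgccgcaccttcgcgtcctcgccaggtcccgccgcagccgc

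Prph: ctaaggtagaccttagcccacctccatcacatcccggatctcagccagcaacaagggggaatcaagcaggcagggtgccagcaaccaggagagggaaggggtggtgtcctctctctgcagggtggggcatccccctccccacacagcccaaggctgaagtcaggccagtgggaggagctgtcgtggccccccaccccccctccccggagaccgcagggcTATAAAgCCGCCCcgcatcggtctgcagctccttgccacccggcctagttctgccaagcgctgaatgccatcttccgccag

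The Ina window held 2 GC boxes and no TATA box. The Prph window held 1 TATA box and 1 GC box right after it, the motifs not overlapping. Over all 32851 promoters of the same length, 13.6% held the TATA box letters and 35.7% the GC box letters. Neither window held the letters of the CCAAT box (letters CCAAT, in 37.4% of promoters) or of the cyclic AMP response element (letters TGACGTCA, in 1.79%). The E box letters (CANNTG, in 72.3%) were found 1 time in Ina and not in Prph. GC content was 71.7% for Ina and 64.7% for Prph, against a median of 52.7%. These are matches of letters and not sites of binding.

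In sham retinas Nefl was the most abundant chain. Per kilobase of exon, its level at 1 week was 161 ± 14.6 CPM per kb (SD, n = 6), followed by Ina at 53.9 ± 2.20, Nefh at 46.2 ± 4.39, Nefm at 35.5 ± 1.5 and Prph at 2.98 ± 0.69 CPM per kb. By this measure Nefl made up 53.6% ± 2.0 (SD, n = 6) of the summed chain level of a sham retina and Prph 0.99% ± 0.19. Ina and Nefh were neighbours in this order whose retinas overlapped in range at 1 week, with Ina at 51.7 to 57.4 and Nefh at 41.6 to 53.3 CPM per kb. At 5 weeks Nefl was at 83.8 ± 2.53 CPM per kb, Ina at 28.8 ± 1.52, Nefh at 22.0 ± 0.85, Nefm at 20.9 ± 0.90 and Prph at 1.74 ± 0.23 (SD, n = 6), and Nefh (21.1 to 23.4) overlapped with Nefm (19.3 to 22.0). The order was thus the same in both tables, while the levels of the tables are only set side by side. In CPM, Nefl ranked at percentile 98.7 of all genes at 1 week and Prph at percentile 24.3. The place of Nefm depends on the exon length used, 5782 bases over both its annotated transcripts. In CPM its sham mean (205 at 1 week and 121 at 5 weeks) was above those of Nefh (185 and 88.0) and Ina (175 and 93.2).

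The comparison of bTBI with sham retinas asked which chains changed after the blast and by how much. All 4 of Nefh, Nefm, Nefl and Ina were lower in bTBI retinas at 1 and 5 weeks, with no overlap between the groups. Prph was called lower at 5 weeks only. How many of all genes had groups without overlap was not counted, so the separation is only a description. The test was limma on log2(CPM + 1) within each timepoint, with p-values adjusted by the Benjamini-Hochberg method over the whole table and a call at an adjusted p under 0.005. In whole-tissue RNA, fewer cells of a type and less RNA per cell cannot be told apart.

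**Figure D1:**
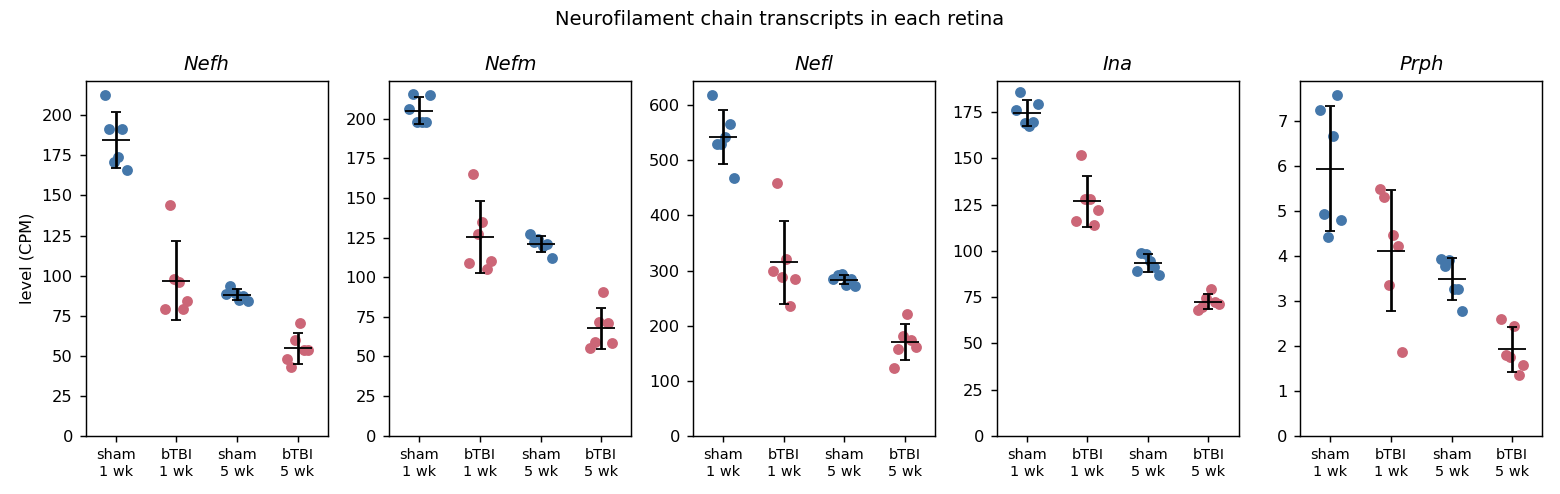
Level of each chain (y axes, CPM, from 0, a separate scale for each gene) in the 4 groups (x axes), with a point for each retina and a bar and whiskers for the mean ± SD of 6. For Nefh, Nefm, Nefl and Ina the bTBI points lie below the sham points of the same timepoint, and for Prph the groups overlap at 1 week.

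At 1 week 4 of the 5 chains were called lower and none higher, where 0.985% of the 14922 genes tested were called lower, 1.27% higher and 2.25% in either direction. At 5 weeks all 5 were called lower, where 0.823% of the 15920 genes tested were called lower and 0.835% in either direction. The median log2 fold change of the chains was -0.72 at 1 week and -0.69 at 5 weeks, beside -0.00024 and 0.0012 over all genes.

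Nefh, the heavy chain, ranged at 1 week from 166 to 213 CPM in sham retinas (median 183) and from 79.3 to 144 CPM in bTBI retinas (median 90.0). Every bTBI retina was below every sham retina, and bTBI replicate 2 was the highest of its group. The fall was the deepest among the chains at this timepoint, to 52.4% of the sham mean, with a log2 fold change of -0.95 (SE 0.12, 95% CI -1.20 to -0.70, limma adjusted p = 0.000275). At 5 weeks it ranged from 84.3 to 93.6 CPM in sham retinas (median 87.9) and from 43.0 to 70.5 CPM in bTBI retinas (median 53.3), again with no overlap, and the log2 fold change was -0.69 (SE 0.08, 95% CI -0.85 to -0.53, limma adjusted p = 1.16e-05).

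Nefm, the medium chain, was at 198 to 216 CPM in sham retinas of 1 week (median 202) and at 105 to 165 CPM in bTBI retinas (median 119). The groups did not overlap, and the log2 fold change was -0.72 (SE 0.09, 95% CI -0.91 to -0.53, limma adjusted p = 0.000271). At 5 weeks the sham retinas lay between 112 and 127 CPM (median 122) and the bTBI retinas between 55.5 and 90.4 CPM (median 65.2). This was the deepest fall of the 4 abundant chains at 5 weeks, to 56.1% of the sham mean, with a log2 fold change of -0.84 (SE 0.08, 95% CI -1.01 to -0.68, limma adjusted p = 1.84e-06).

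Nefl, the light chain on which the filament is built, was at 469 to 619 CPM in sham retinas of 1 week (median 536) and at 236 to 458 CPM in bTBI retinas (median 294). The highest bTBI retina, replicate 2, came close to the lowest sham retina without crossing it. The log2 fold change was -0.81 (SE 0.12, 95% CI -1.06 to -0.56, limma adjusted p = 0.000609). Without bTBI replicates 3 and 4, which were rich in Mbp, it was -0.803 with an adjusted p of 0.00581, which is no longer a call, while the Nefh, Nefm and Ina calls held without that pair and all 4 held without replicates 5 and 6. At 5 weeks Nefl was at 273 to 294 CPM in sham retinas (median 284) and at 123 to 221 CPM in bTBI retinas (median 168), with a log2 fold change of -0.76 (SE 0.08, 95% CI -0.93 to -0.59, limma adjusted p = 1.00e-05).

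Ina, for alpha-internexin, had a shallower fall than the other 3 abundant chains, a difference tested with the ratios of chains. Sham retinas of 1 week were at 168 to 186 CPM (median 173) and bTBI retinas at 114 to 152 CPM (median 125), with a log2 fold change of -0.46 (SE 0.06, 95% CI -0.59 to -0.34, limma adjusted p = 0.000347). At 5 weeks sham retinas were at 86.8 to 99.0 CPM (median 92.9) and bTBI retinas at 67.8 to 79.1 CPM (median 71.9). The groups did not overlap at either timepoint, and the log2 fold change at 5 weeks was -0.36 (SE 0.04, 95% CI -0.45 to -0.27, limma adjusted p = 2.62e-05), or 77.7% of the sham mean.

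Prph, for peripherin, was low in every retina. At 1 week sham retinas were at 4.43 to 7.59 CPM (median 5.80) and bTBI retinas at 1.86 to 5.50 CPM (median 4.35). The groups overlapped, with 3 of 6 bTBI retinas below every sham retina, and the log2 fold change of -0.47 was not called (SE 0.18, 95% CI -0.86 to -0.07, limma adjusted p = 0.187). It was -0.31 without bTBI replicate 6 and -0.29 without replicates 5 and 6, against -0.54 to -0.40 in the other single omissions. At 5 weeks sham retinas were at 2.77 to 3.93 CPM (median 3.53) and bTBI retinas at 1.35 to 2.59 CPM (median 1.78), with no overlap. The log2 fold change was -0.63 (SE 0.11, 95% CI -0.86 to -0.39, limma adjusted p = 0.00228), on a log2(CPM + 1) scale that understates the change of so low a gene. This call was lost in 9 of the 12 fits that left out 1 retina, with adjusted p up to 0.0095, and held without sham replicate 6, bTBI replicate 1 or bTBI replicate 4.

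The difference between the effects at 5 weeks and at 1 week was tested with an interaction term over the 24 retinas, in which 0.104% of 14455 shared genes were called. None of the 5 chains was called, with adjusted p of 0.703 to 0.979. The difference, 5 weeks minus 1 week on the log2 scale, was 0.26 for Nefh (95% CI -0.06 to 0.58), -0.12 for Nefm (-0.39 to 0.15), 0.05 for Nefl (-0.27 to 0.38), 0.11 for Ina (-0.05 to 0.26) and -0.16 for Prph (-0.62 to 0.30). Leaving out 1 retina moved these differences, without a call, to between 0.18 and 0.38 for Nefh, -0.21 (without 5 weeks bTBI replicate 4) and -0.04 (without 1 week bTBI replicate 2) for Nefm, -0.03 and 0.17 for Nefl, 0.08 and 0.16 for Ina, and -0.32 (without 1 week bTBI replicate 6) and -0.08 (without 1 week bTBI replicate 1) for Prph. The intervals leave room for differences of up to about the sizes at their ends. At an unadjusted p the smallest was 0.104, for Nefh.

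How tightly the chains moved together was read from the retinas of a group. Set against its sham mean, each chain varied with the retina, and the same retina stood out for the 4 abundant chains. In bTBI replicate 2 of 1 week Nefh was at 78.0%, Nefm at 80.6%, Nefl at 84.4% and Ina at 86.9% of the sham mean, the highest of the group for all 4. In bTBI replicate 4 of 5 weeks they were at 80.2%, 74.7%, 78.1% and 84.9%, again the highest of the group for all 4. The lowest bTBI retina was replicate 5 at 1 week for Nefm (51.2%), Nefl (43.5%) and Ina (65.3%), and replicate 1 at 5 weeks for the same 3 chains (45.9%, 43.5% and 72.7%). Nefh was lowest in replicate 1 at 1 week and in replicate 2 at 5 weeks. Prph did not keep this order, since its highest bTBI retina was replicate 1 at both timepoints, at 92.5% and 74.4% of the sham mean.

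**Figure D2:**
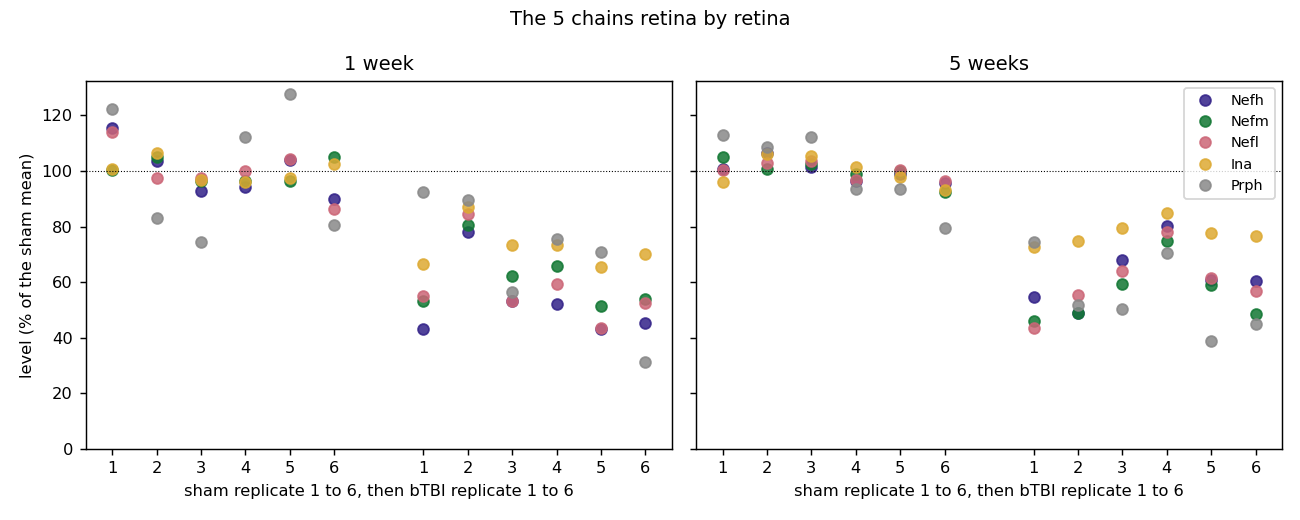
Level of each chain as a percentage of its sham mean (y axes) in each retina (x axes, sham replicates 1 to 6 and then bTBI replicates 1 to 6) at 1 week and 5 weeks, with colours for the chains. Nefh, Nefm, Nefl and Ina are highest in bTBI replicate 2 at 1 week, at 78.0% to 86.9%, and in bTBI replicate 4 at 5 weeks, at 74.7% to 84.9%, while Prph follows another order.

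Among the 6 pairs of Nefh, Nefm, Nefl and Ina, Pearson's r over the 6 bTBI retinas was 0.92 to 0.99 at 1 week (median 0.95) and 0.80 to 0.97 at 5 weeks (median 0.92). Spearman's rho was 0.54 to 1.00 and 0.83 to 1.00. Without the 2 retinas farthest from the median of the first chain, r of these pairs lay between 0.28 and 0.96 at 1 week, and between 0.79 and 0.96 at 5 weeks. In sham retinas r of the same pairs was -0.44 to 0.96 at 1 week (median 0.14) and 0.44 to 0.85 at 5 weeks (median 0.68). The difference of r between sham and bTBI retinas was not tested. The SD of log2 level was 0.15 to 0.32 in bTBI retinas of 1 week against 0.06 to 0.13 in sham retinas for these 4 chains. At 5 weeks it was 0.24 to 0.28 against 0.04 to 0.06 for Nefh, Nefm and Nefl, and 0.08 in both groups for Ina.

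Of the 40 chain pair correlations (10 pairs in 4 groups), 9 had an adjusted p under 0.05 by Pearson's r with exact permutation of the 720 orders, and none by Spearman's rho. The closest pair at 1 week in bTBI retinas was Nefh with Ina (r = 0.99, exact permutation p = 0.00556, adjusted p = 0.037, rho = 0.89, exact permutation p = 0.0333, adjusted p = 0.121). It was r = 0.94 without the 2 retinas farthest from the Nefh median. Nefl with Ina in the same retinas had r = 0.93 (exact permutation p = 0.0153, adjusted p = 0.0556, rho = 0.83, p = 0.0583, adjusted p = 0.146) and r = 0.28 without the 2 farthest retinas, so that relation rested on them. Nefm with Nefl there had r = 0.92 (exact permutation p = 0.00833, adjusted p = 0.037, rho = 0.83, p = 0.0583, adjusted p = 0.146) and r = 0.50 without them, so it rested on them too. At 5 weeks in bTBI retinas Nefl with Ina had r = 0.97 (exact permutation p = 0.00417, adjusted p = 0.0333, rho = 1.00, p = 0.00278, adjusted p = 0.0556) and r = 0.95 without the 2 farthest retinas.

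Nefm and Ina were the pair most closely matched in sham retinas at 1 week (r = 0.96, exact permutation p = 0.00417, adjusted p = 0.0333, rho = 0.94, p = 0.0167, adjusted p = 0.0833), and r was 0.97 without the 2 farthest retinas. The SD of their log2 ratio was 0.018 over those 6 retinas, against 0.06 for each chain alone. Prph was not closely tied to the others in bTBI retinas, with r of 0.22 to 0.39 at 1 week and -0.14 to 0.20 at 5 weeks. In sham retinas of 5 weeks its r with the other 4 was 0.62 to 0.93. At 1.35 to 7.59 CPM, Prph was counted on fewer reads than the other chains.

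The ratios of chains ask whether they fell by the same factor. Each ratio was compared between 6 sham and 6 bTBI retinas by an exact two-sided permutation test over all orders of the labels, whose smallest p is 0.00216, adjusted over 20 tests (10 pairs at 2 timepoints). Of the 20, 8 had an adjusted p under 0.05, 4 at each timepoint and for the same 4 pairs. Nefh, Nefm and Nefl each fell more than Ina at both timepoints, and Nefh against Nefm changed in opposite directions.

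Against Ina at 1 week the log2 ratio was lower in bTBI retinas by -0.49 for Nefh (exact permutation adjusted p = 0.0173), -0.26 for Nefm (adjusted p = 0.0108) and -0.35 for Nefl (adjusted p = 0.0309). The Nefm/Ina ratio was below every sham retina in 6 of 6 bTBI retinas and the other pair of ratios in 5 of 6. At 5 weeks the differences were -0.33 for Nefh, -0.49 for Nefm and -0.40 for Nefl, each with an exact permutation adjusted p of 0.0108 and each below every sham retina in 6 of 6 bTBI retinas. Without bTBI replicates 3 and 4, or without replicates 5 and 6, the Nefl/Ina call at 1 week was lost (adjusted p up to 0.0833) with differences of -0.33 and -0.27, in a design of 6 against 4 whose smallest p is higher, and the Nefh/Ina and Nefm/Ina ratios held.

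The heavy to medium chain ratio, Nefh/Nefm, was lower in bTBI retinas at 1 week, with log2 means of -0.38 ± 0.10 against -0.15 ± 0.14 in sham (SD, n = 6, difference -0.23, exact permutation adjusted p = 0.0289). At 5 weeks it was higher, with -0.30 ± 0.12 in bTBI against -0.46 ± 0.05 in sham retinas (SD, n = 6, difference 0.15, exact permutation adjusted p = 0.0487). The value at 5 weeks was close to the threshold and was lost in 9 of 12 fits that left out 1 retina, all but those without sham replicate 2, bTBI replicate 2 or bTBI replicate 5 (adjusted p up to 0.0952), and the call at 1 week was lost without bTBI replicates 3 and 4 or 5 and 6 (adjusted p up to 0.0909), where the difference stayed at -0.21 and -0.22. Between the timepoints the sham mean of this ratio went from -0.15 to -0.46 and the bTBI mean from -0.38 to -0.30. The tables were normalized separately, and the turn of the ratio was not tested. Nefm/Nefl and Nefh/Nefl were not called at either timepoint (adjusted p of 0.0818 to 0.527), and no ratio with Prph was called (adjusted p of 0.0866 to 0.998). Leaving out 1 retina brought a call for Nefh/Nefl at 1 week (-0.17 without bTBI replicate 3 or 5), for Nefh/Prph and Nefl/Prph at 1 week (-0.61 and -0.48 without bTBI replicate 6), and for Nefm/Nefl and Ina/Prph at 5 weeks (-0.12 and 0.35 without bTBI replicate 1). With a pseudocount of 0.1 Ina/Prph at 5 weeks was also called, with a difference of 0.49 (adjusted p = 0.0379) against 0.27.

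As shares of the summed chain level per kilobase, Ina rose from 18.1% ± 1.32 in sham to 22.0% ± 1.89 in bTBI retinas at 1 week and from 18.3% ± 0.57 to 22.9% ± 2.17 at 5 weeks (SD, n = 6). Nefh was 15.4% ± 0.56 in sham and 13.4% ± 0.91 in bTBI retinas at 1 week and 14% ± 0.24 and 13.8% ± 1.06 at 5 weeks. These shares are a description, with no test beyond that of the ratios.

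RGC markers fell in the same retinas. A list of 10 RGC markers (Thy1, Sncg, Rbpms, Tubb3, Pvalb, Pou4f1, Pou4f2, Pou4f3, Rbfox3 and Chrna6) had 8 called lower at 1 week and 10 at 5 weeks, with median log2 fold changes of -0.50 and -0.57. It follows the markers that the study named for these samples, and is therefore not independent evidence of the direction. Among them Pvalb, for the calcium buffer parvalbumin, had log2 fold changes of -1.19 at 1 week and -0.89 at 5 weeks (limma adjusted p = 0.000642 and 4.15e-05), and Tubb3, for the neuronal tubulin, of -0.45 and -0.53 (adjusted p = 0.000238 and 9.59e-06). A second list of 10 common RGC markers had 7 called lower at 1 week and 9 at 5 weeks. It shares Rbpms, Pou4f1, Pou4f2, Pou4f3, Sncg and Thy1 with the first list, so the lists are not independent of each other.

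Each chain was then set against the mean log2 level of the 10 RGC markers of the same retina, by an exact two-sided permutation test adjusted over 10 tests. Nefh fell more than the marker mean at 1 week (difference -0.36, adjusted p = 0.00722, 6 of 6 bTBI retinas below every sham retina), and at 5 weeks its difference was -0.10 (adjusted p = 0.133). Nefm was -0.13 at 1 week (adjusted p = 0.0897) and fell more than the marker mean at 5 weeks (difference -0.25, adjusted p = 0.00722, 6 of 6 below). Nefl fell more than this mean at both timepoints (differences -0.22 and -0.17, adjusted p = 0.013 and 0.0108, 5 of 6 below each time). The markers taken singly had log2 fold changes of -1.19 to -0.37 at 1 week and -0.89 to -0.34 at 5 weeks. All 5 chains lay within these ranges.

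Ina also fell, and its difference from the marker mean had the other sign. Relative to the RGC markers it was higher in bTBI retinas at 5 weeks (difference 0.23, exact permutation adjusted p = 0.00722, 6 of 6 above every sham retina) and 0.13 higher at 1 week without a call (adjusted p = 0.0649), which became one without sham replicate 6 or bTBI replicate 2 (adjusted p = 0.0253 for each), or with a pseudocount of 0.1 (0.15, adjusted p = 0.0433). Nefm at 1 week likewise gained a call without sham replicate 1 (-0.16, adjusted p = 0.018). For Prph the differences from the markers were 0.13 and -0.04, without a call (exact permutation adjusted p = 0.592 and 0.779, SDs of 0.43 and 0.29 in bTBI retinas). With the second RGC list, which shares most of its genes with the first, the same chains were called.

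**Figure D3:**
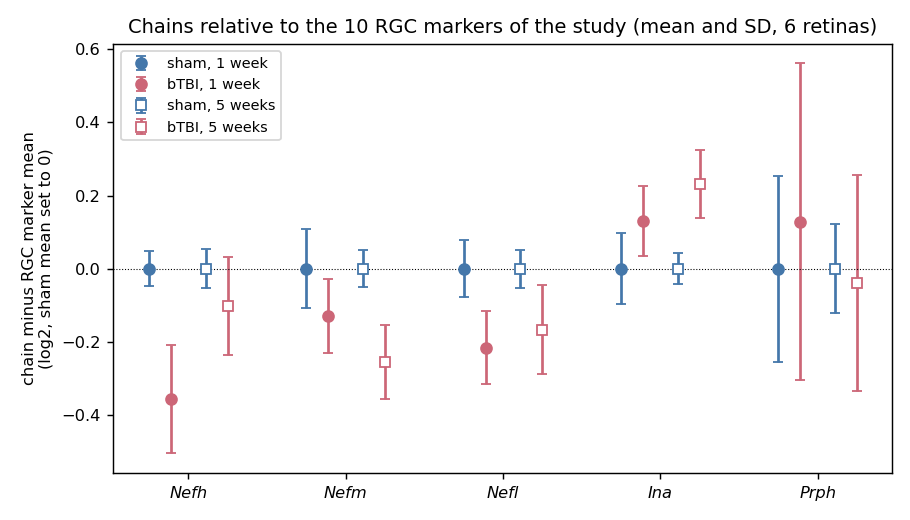
Log2 level of each chain minus the mean log2 level of 10 RGC markers of the same retina (y axis, sham mean of each timepoint set to 0), as mean ± SD of 6 retinas for sham and bTBI at 1 week (filled circles) and 5 weeks (open squares). Nefh is lowest at 1 week, at -0.36, Nefm at 5 weeks, at -0.25, and Ina lies above 0 at both, at 0.13 and 0.23.

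In bTBI retinas the chains also followed the RGC marker mean across retinas, with r of 0.91 to 0.99 for Nefh, Nefm, Nefl and Ina at 1 week and 0.86 to 0.99 at 5 weeks, and 0.29 and -0.02 for Prph. None of the 80 correlations with the marker means of RGCs, microglia, lens and oligodendrocytes had an adjusted p under 0.05 (the lowest was 0.0556, exact permutation), while 11 had an unadjusted p under 0.05. Over all 24 retinas, with the mean of each group subtracted, the genes most like each chain among 14392 were Vsnl1 (r = 0.92), Pvalb (0.90) and Chrna6 (0.89) for Nefh, Scn1a (0.90), Slc17a6 (0.90) and Rgs4 (0.86) for Nefm, and Chrna6 (0.96), Vsnl1 (0.93) and Thy1 (0.92) for Nefl. For Ina they were Rimkla (0.89) and Scn1a (0.89), and for Prph the pseudogene Gm9385 (0.84), Tmem160 (0.74) and Tes (0.73). The retinas share depth and composition, and these values are a description.

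Calls among the other genes tied to neurofilaments were too few to set apart from the share called over all genes. The list of 27 partners holds the cytolinkers Dst, Plec and Macf1, the transport motors Kif5a, Kif5b, Kif5c, Klc1, Dync1h1 and Myo5a, the kinases and phosphatase that act on the chain tails, the proteases Capn1 and Capn2, and factors of chain turnover and transcript stability such as Trim2, Stub1, Arhgef28 and Tardbp. At 1 week none of 27 was called by limma, with 9 at an unadjusted p under 0.05, and at 5 weeks 1 was called lower, with 5 at an unadjusted p under 0.05. Over all genes 2575 of 14922 at 1 week and 1739 of 15920 at 5 weeks had an unadjusted p under 0.05. The share of all genes called in either direction was 2.25% at 1 week and 0.835% at 5 weeks. The median log2 fold changes of the 27 partners were -0.06 and -0.05. Kif5a, the neuronal kinesin that carries neurofilaments along the axon, was the one called at 5 weeks, at 243 to 283 CPM in sham and 192 to 238 CPM in bTBI retinas, with a log2 fold change of -0.29 (SE 0.04, limma adjusted p = 0.000437), and at 1 week it was -0.29 (adjusted p = 0.047). Capn1, for the calcium-activated protease calpain that cleaves the chains, had the lowest log2 fold change of the list at both, -0.32 and -0.36 (adjusted p = 0.045 and 0.00565), and Hspb1, a small heat shock protein, the highest at 1 week, 0.61 (adjusted p = 0.0865).

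Some other intermediate filaments were higher at 1 week. Of Vim, Gfap, Des, Nes and Synm, 3 were called higher at 1 week and none at 5 weeks by limma, with 1 of 5 at an unadjusted p under 0.05 at 5 weeks. Gfap, the filament of astrocytes and reactive Müller glia, was at 15.4 to 27.1 CPM in sham and 57.7 to 737 CPM in bTBI retinas of 1 week (log2 fold change 2.51, SE 0.45, limma adjusted p = 0.00273). For Nes, which encodes nestin, the value was 1.06 (adjusted p = 0.000824), and for Vim, the vimentin gene of Müller glia, 0.78 (adjusted p = 0.00383). Synm (0.27, adjusted p = 0.123) and Des (-0.02) were not called. The mean log2 level of the 5 genes at 1 week was highest in bTBI replicate 3, the retina richest in Mbp, at 6.37. It was 4.98 to 5.61 in the rest of that group.

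**Figure D4:**
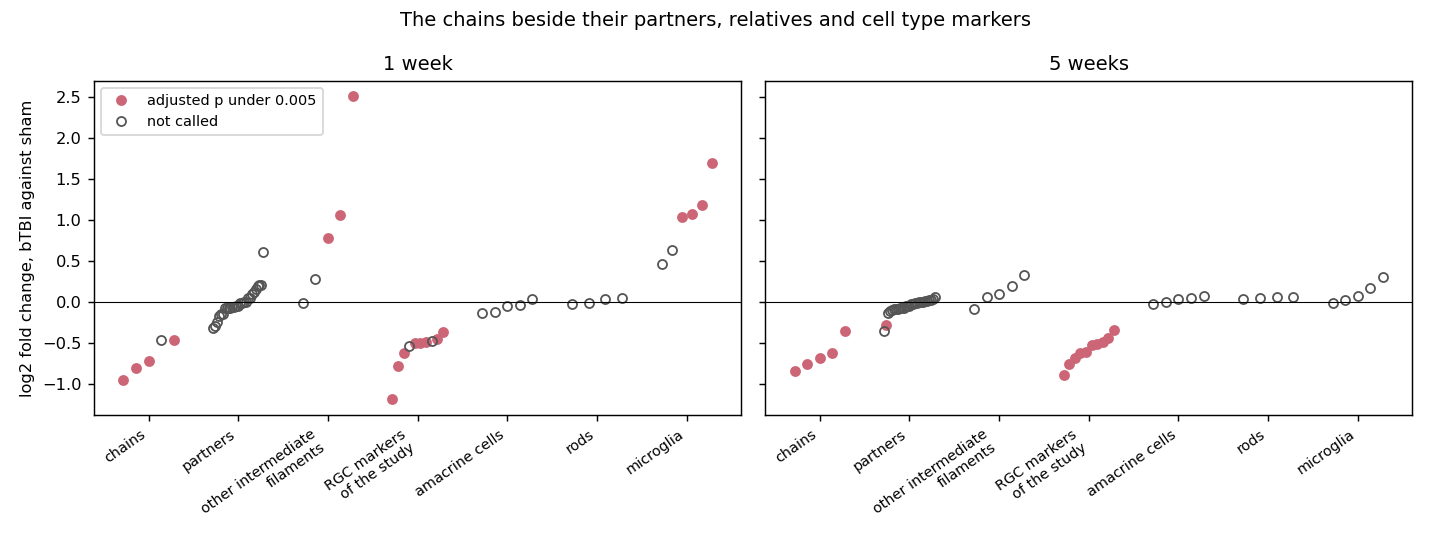
Log2 fold change of bTBI against sham retinas (y axes) for each gene (points) of the chains, their partners, other intermediate filaments and markers of RGCs, amacrine cells, rods and microglia (x axes) at 1 week and 5 weeks, filled where the limma adjusted p was under 0.005. The chains and the RGC markers lie below 0 at both timepoints, with medians of -0.72 and -0.50 at 1 week. The partners lie on both sides of 0, with medians of -0.06 and -0.05.

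Markers of other cell types were given for the same retinas. None of 4 horizontal cell, 5 amacrine cell or 4 rod markers was called at either timepoint by limma (at an unadjusted p under 0.05, 1 horizontal cell marker at each timepoint and no other). That marker was Calb1 both times, with log2 fold changes of -0.22 and -0.10 (limma adjusted p = 0.0509 and 0.361). The median log2 fold change of the 4 horizontal cell markers was -0.12 at 1 week and 0.03 at 5 weeks. Of 6 microglial markers, 4 were called higher at 1 week, and of the 5 measured at 5 weeks none was, Aif1 being absent from that table. The mean log2 level of the microglial markers was 2.76 to 3.32 in sham and 3.53 to 4.61 in bTBI retinas of 1 week, and their part in the fall of the chains was not tested. The 7 of 8 lens markers in the tables (Mip was absent) had mean log2 levels of 0.97 to 4.70 in sham and 2.10 to 7.67 in bTBI retinas of 1 week, and none was called. For oligodendrocytes, Mbp was not called, and Mog, Mag and Mobp were absent from both tables. Of the Schwann cell markers only Pmp22 was measured, without a call. Without the pair of retinas rich in lens transcripts, or without the pair rich in myelin transcripts, the 4 abundant chains had log2 fold changes at 1 week of -0.42 to -0.97. No fit left out both pairs. The Nefl call was lost without the myelin-rich pair (limma adjusted p = 0.00581).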

How the data were processed

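Retinal polyA RNA of 24 mice was sequenced with a stranded kit as paired reads. Per the study's methods and the submitters' processing notes, the authors aligned reads to GRCm38 (mm10) with STAR, counted genes with featureCounts and fitted edgeR within each timepoint. The deposited values are a signal: gene counts divided by an effective library size, as CPM, in a table per timepoint. Low values fell on whole steps of 1 read (100% of values below 200 within 0.01 of a step), and depth is the total divided by the step, which was not checked against the authors' totals. Gene symbols were matched by Ensembl identifier without its version (14907 of 14922 and 15902 of 15920 identifiers).

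The test was limma 3.58.1 (R 4.3.3) on log2(CPM + 1) with a trended prior and no filter, calls at an adjusted p under 0.005, after checks on simulated data. Exact permutation tests were written with numpy 2.4.6, with ranks and their adjusted p-values from scipy 1.17.1. Each sample was a retina of its own mouse. Genes were named by a rule: the 5 chains, called members of each list (up to 4 per direction), members at the ends of a list's range, and the 3 genes most like each chain. Alternatives were other scalings, a minimum of 1 CPM in 6 of 12 retinas, a pseudocount of 0.1, other priors, a replicate block, a threshold of 0.05, leaving out retinas and a fit of all 24 retinas. The chains and gene lists were chosen with earlier results of these data known. Some genes that the rule or the lists hold are not reported here.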

Additional observations from a re-analysis of the deposited data

Results flagged for a closer look

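Of the 20 groups of 6 values (5 chains in 4 groups), 2 had a highest retina set apart from the rest by more than Dixon's 95% critical value for 6 samples. In bTBI retinas of 1 week, replicate 2 had 144 CPM of Nefh, with a gap to the next retina of 0.711 of the group's range, and 152 CPM of Ina, with a gap just over the critical value. Chance flags about 1 in 20 groups. Without this retina the 1 week log2 fold change was -1.07 for Nefh and -0.52 for Ina.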

How the results depend on the processing

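Over the alternatives run for each timepoint, Nefh, Nefm and Ina kept their direction and their call at both timepoints, and Nefl did except without bTBI replicates 3 and 4 of 1 week (-0.803, chosen after seeing the data). Prph at 5 weeks lost its call with a prior without trend (log2 fold change -0.63) and in the fit of all 24 retinas (-0.63), and in single omissions, which ranged from -0.69 to -0.57. The cause was not tested. Genes called at 1 week numbered 907 at a threshold of 0.05, 685 in the fit of all 24 retinas, 112 without bTBI replicates 5 and 6 and 128 without replicates 3 and 4, with 189 to 486 in single omissions (189 without sham replicate 2, 206 and 204 without sham 3 or 5, 204 and 217 without bTBI 5 or 6). At 5 weeks they numbered 326 at a threshold of 0.05, 56 without the trend and 75 in the fit of all 24 retinas, with 88 (no sham replicate 2) to 163 in single omissions. Genes whose effect differed between the timepoints numbered 111 at a threshold of 0.05 and 9 to 111 in single omissions (111 without 1 week bTBI replicate 2, 31 without 1 week sham replicate 4, 43 without 5 weeks bTBI replicate 1, 9 without 5 weeks bTBI replicate 3 or 5), and the Nefl difference ranged from -0.027 (5 weeks bTBI replicate 4 left out; -0.023 for 1 week bTBI replicate 5) to 0.17. Called ratios at 1 week numbered 2 without bTBI replicates 3 and 4 and 2 without replicates 5 and 6. Ina/Prph at 5 weeks gained a call with a pseudocount of 0.1 (0.49). Ratios near 0 turned sign: Ina/Prph at 1 week in single omissions (-0.149 to 0.103), without bTBI replicates 3 and 4 (-0.018) and without 5 and 6 (-0.13), Nefh/Prph and Nefl/Prph at 5 weeks with a pseudocount of 0.1 (0.15 and 0.092) and in single omissions (-0.118 to 0.033 and -0.199 to 0.023), and Prph against the RGC markers at 5 weeks in single omissions (-0.145 to 0.033). Nefl with Ina in sham retinas of 1 week had r = 0.15 when scaled to equal totals. Other scalings moved the median of all genes by under 0.01 (log2).

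Correlations of the deviations of same-numbered sham and bTBI retinas were -0.25 to 0.54 at 1 week and -0.11 to 0.15 at 5 weeks. Differently numbered retinas were not compared, so these values cannot decide whether the replicate numbers pair the retinas. With the replicate block 293 genes were called at 1 week and 134 at 5 weeks, and no call of a chain changed. The planned count test on reads recovered from the steps of the values was not run for either timepoint or their difference.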
